A study of Mus musculus with 2 samples.

Results

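Solute carriers are membrane proteins that move sugars, amino acids, ions, vitamins, metals and nucleotide sugars across the plasma membrane and the membranes of organelles. Their gene symbols give a family number after Slc, and that number broadly follows the substrate. The genes described here are those outside the mitochondrial Slc25 family. They were chosen by symbol and selected on level, keeping those whose FPKM averaged 1 or more across the 2 libraries. FPKM counts sequenced fragments per kilobase of a transcript and relative to all fragments mapped in the library. Of 297 such symbols listed, 126 passed, out of 17215 genes listed in all and 10123 at that level. The level filter used both libraries, so the levels that let a gene pass are a description.

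The study cultured MC3T3-E1, a clonal mouse pre-osteoblast line from newborn calvaria obtained from a cell bank, with formaldehyde at 100 µM or at 300 µM. Each dose has 1 library of total RNA, both from this cell line, and no untreated library was analysed here. The length of exposure is not in the labels. With 1 library per dose there is no spread between replicates, so no p-value is given and each difference is one between 2 libraries.

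Cells depend on these carriers in several linked ways. Growing cells import glutamine, large neutral amino acids and glucose, and export lactate. Zinc carriers of the Slc30 family move zinc out of the cytosol and those of the Slc39 family move it in. The Slc35 family supplies the Golgi and endoplasmic reticulum with the activated sugars used to build glycoproteins and proteoglycans. In bone-forming cells, sodium-phosphate carriers and sulphate carriers are also known for their part in mineral and cartilage matrix biology.

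The libraries held an estimated 18500000 mapped fragments at 100 µM and 19000000 at 300 µM. Estimated reads per member had a median of 623 at 100 µM and 348 at 300 µM, and 3 members rested on fewer than 20 reads in a library. Intervals on such reads are exact 95% Poisson intervals and cover counting error only. Of 8 osteoblast markers, 6 reached 1 FPKM at 100 µM and 7 at 300 µM, led by Col1a2 at 2336 and 2161 FPKM. Bglap, a late osteoblast marker, was listed at 0 at 100 µM and at 0.49 FPKM at 300 µM. Of 10 listed markers of other cell types, 2 reached 1 FPKM at 100 µM and 1 at 300 µM, and the adipocyte genes Plin1 and Fabp4 and the macrophage gene Adgre1 were listed at 0 in both. Summed over the 10 markers, the levels were 34.1 and 16.4 FPKM, of which the neuronal marker Tubb3 gave 31.1 and 15.3. Runx2, a transcription factor of the osteoblast lineage, stood at 7.99 and 3.60 FPKM. Their part in the differences below was not tested.

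The 4 promoters that follow show where strings matching response elements for amino acid shortage, oxidative stress and metals lie. They belong to carriers whose messages were lower at 300 µM, and no match was tested as a binding site. Slc1a4 encodes a carrier of small neutral amino acids, Slc7a6 a light chain of a heteromeric amino acid carrier, and Slc30a1 and Slc30a4 zinc exporters. Sequences are from RefSeq, build GRCm38.p6, and run 5′ to 3′ along the gene's strand from 250 bases before to 50 bases after the annotated start. Capitals mark every match on either strand to TGATGNAA (the C/EBP-ATF element bound by ATF4), TGACNNNGC (the antioxidant element bound by NRF2), TGCGCNC or TGCACNC (2 forms of the metal response element bound by MTF1) and CACGTG (the E-box, which reads the same on both strands). Matches on opposite strands can overlap. These genes were chosen for their matches after their values were seen.
Slc1a4, chr11:20332664-20332963, minus strand: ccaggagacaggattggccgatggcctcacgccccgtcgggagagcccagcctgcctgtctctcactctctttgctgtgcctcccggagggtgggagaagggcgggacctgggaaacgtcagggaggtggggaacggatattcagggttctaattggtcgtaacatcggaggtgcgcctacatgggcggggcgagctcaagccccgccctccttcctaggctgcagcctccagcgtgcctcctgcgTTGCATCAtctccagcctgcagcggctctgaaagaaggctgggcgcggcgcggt
Slc7a6, chr8:106168671-106168970, plus strand: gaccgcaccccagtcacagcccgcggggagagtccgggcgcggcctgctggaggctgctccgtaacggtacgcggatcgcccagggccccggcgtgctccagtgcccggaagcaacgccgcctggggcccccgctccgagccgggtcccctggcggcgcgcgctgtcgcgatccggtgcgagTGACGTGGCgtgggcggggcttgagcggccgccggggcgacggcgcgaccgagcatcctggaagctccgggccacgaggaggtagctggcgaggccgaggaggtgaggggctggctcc
Slc30a1, chr1:191906531-191906830, plus strand: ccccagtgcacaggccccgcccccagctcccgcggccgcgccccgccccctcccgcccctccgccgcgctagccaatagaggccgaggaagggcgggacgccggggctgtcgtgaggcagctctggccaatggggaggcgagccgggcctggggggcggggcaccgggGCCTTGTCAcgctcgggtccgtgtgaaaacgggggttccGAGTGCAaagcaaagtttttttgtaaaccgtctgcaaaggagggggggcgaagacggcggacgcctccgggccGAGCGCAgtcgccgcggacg
Slc30a4, chr2:122702614-122702913, minus strand: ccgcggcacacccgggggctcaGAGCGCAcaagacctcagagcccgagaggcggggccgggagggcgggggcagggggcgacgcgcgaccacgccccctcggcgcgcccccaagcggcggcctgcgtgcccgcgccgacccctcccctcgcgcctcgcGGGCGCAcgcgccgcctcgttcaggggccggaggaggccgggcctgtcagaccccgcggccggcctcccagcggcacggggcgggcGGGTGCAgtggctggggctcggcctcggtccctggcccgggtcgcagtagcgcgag

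Most solute carrier messages stood lower at 300 µM than at 100 µM. Of the 126 genes, 54 were at least 2-fold lower, 5 at least 2-fold higher and 67 between, on the scale log2((FPKM at 300 µM + 1)/(FPKM at 100 µM + 1)). The added 1 understates the change of low genes. The shares, 42.9% lower and 3.97% higher, compare with 29.9% lower and 6.09% higher among all 10123 genes. The median log2 ratio of the carriers was -0.83 against -0.30 for all genes, and 90 of the 126 had a ratio below 0. Most genes of any kind did so too, 6028 of 10123, and 75 of the 126 carriers lay below the median of all genes. FPKM is relative to all mapped fragments, so cell number and total RNA per cell are not measured. In bulk RNA, fewer cells holding a message and less of that message per cell cannot be told apart.

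Part of that excess depended on the scale. Ratios may be read relative to the median gene, which is a shift of 0.30 on the log2 scale. After centring on it, 31 carriers were lower and 13 higher, or 24.6% and 10.3%, beside 22.3% and 14.5% of all genes. The share of lower among those past 2-fold was then 70.5%, against 91.5% before centring, while over all genes it was 60.6% against 83.1%. At 3-fold, 19 carriers were lower, or 15.1%, beside 16.3% of all genes. When the dependence of the ratio on transcript length and GC content was removed, 33 carriers were lower, or 26.2%, beside 23.2% of all genes.

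**Figure D1:**
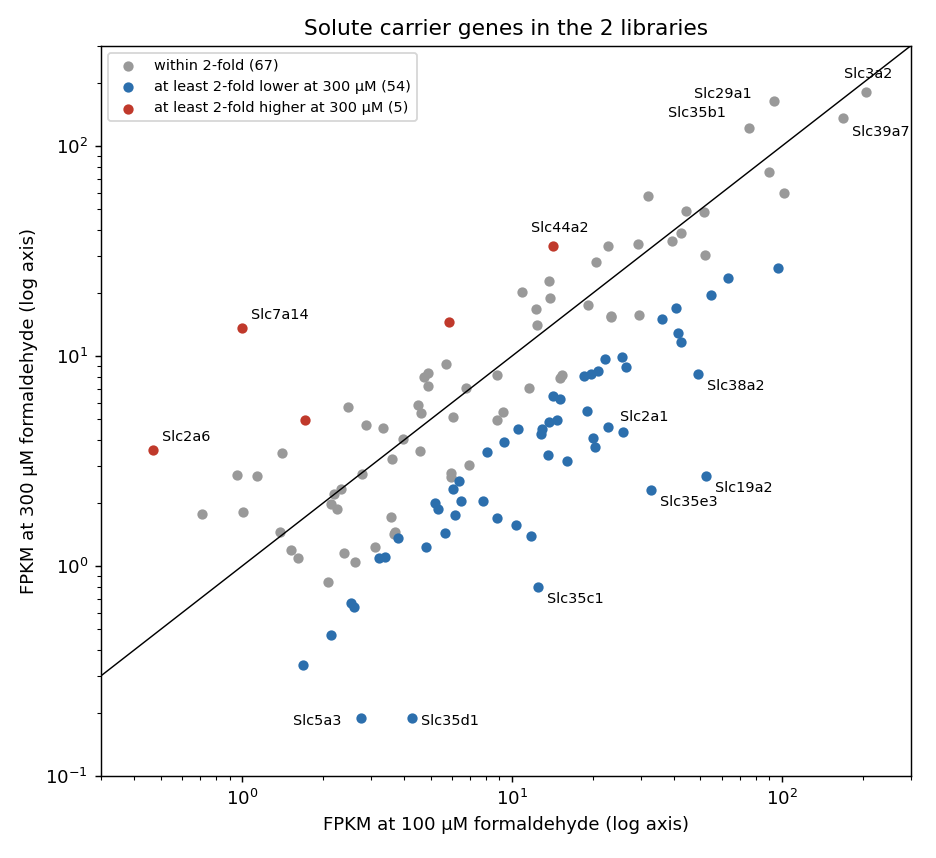
FPKM of each of the 126 solute carrier genes at 100 µM (horizontal, log axis) and 300 µM (vertical, log axis), 1 point per gene, with the line of equal level. Colours give the call on the scale with a pseudocount of 1: 54 genes at least 2-fold lower (blue), 5 at least 2-fold higher (red) and 67 between (grey). Slc19a2 and Slc35e3 lie far below the line, Slc7a14 and Slc2a6 far above it.

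The substrate classes differed in where their medians lay. Classes were set by family number. Counts per class below stand beside 29.9% lower and 6.09% higher among all genes, or 22.3% and 14.5% after centring. The median log2 ratio was -1.11 for 4 carboxylate carriers, of which 3 passed the level filter only through the 100 µM library. It was -1.02 for 15 zinc carriers, -1.02 for 19 genes of the Slc35 family, -0.86 for 7 vitamin carriers and -0.84 for 21 amino acid carriers. Which class came lowest depended on the processing. Sugar carriers had -0.42 over 10 genes, copper, iron and heme carriers -0.24 over 5 and inorganic ion carriers -0.16 over 24. The 7 carriers of other substrates had -0.11. The 3 nucleoside and nucleobase carriers had 0.05, and the 7 lipid and choline carriers 0.42. Thus 6 of the 11 classes had a median below the -0.30 of all genes. The medians of the classes with 3 to 7 genes rest on few genes, and in the lipid and choline class 3 genes were lower and 1 was higher although its median was positive.

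**Figure D2:**
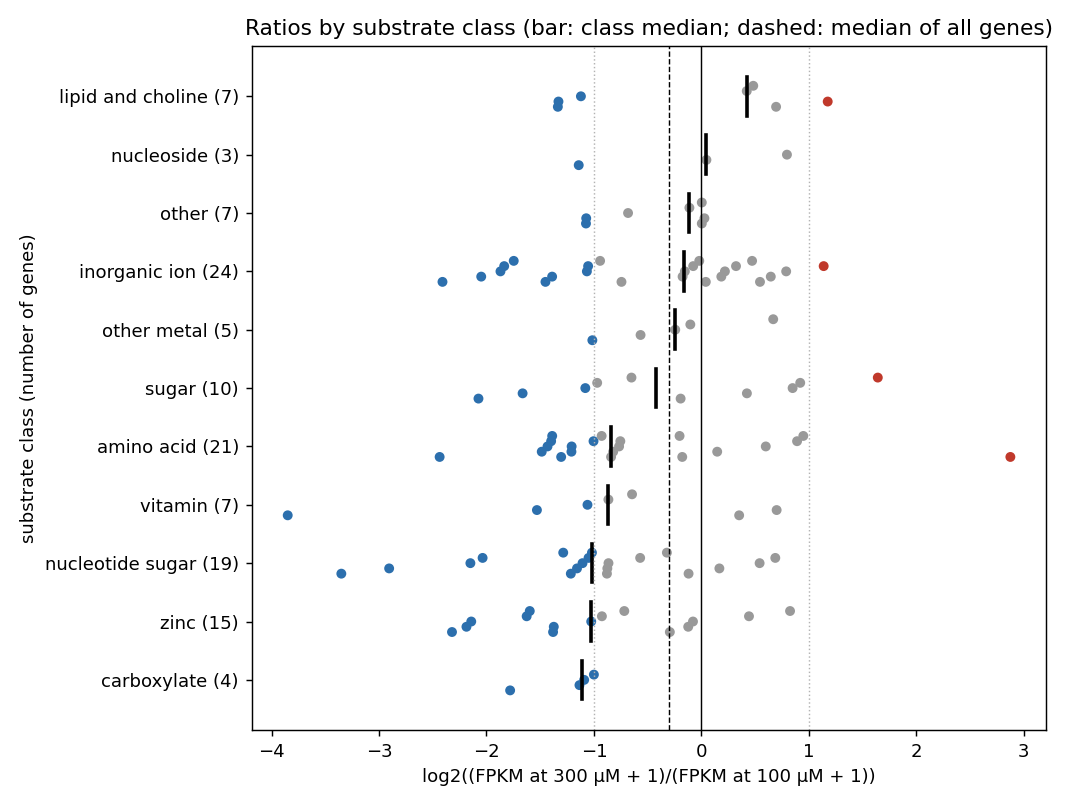
Log2 ratio of 300 µM over 100 µM (horizontal, pseudocount of 1) for the 122 genes that encode carriers, 1 point per gene, in rows by substrate class with the number of genes. Black bars are class medians, the dashed line is the median of all genes (-0.30), and dotted lines mark 2-fold. Points are blue where at least 2-fold lower, red where at least 2-fold higher. Within the ion, sugar and amino acid classes, ratios lie on both sides of 0.

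Several importers of amino acids were lower at 300 µM, while the heavy chain that light chains share differed less. In this class 9 of 21 genes were at least 2-fold lower and 1 was higher (6 lower and 3 higher after centring). The share lower is 42.9% beside 29.9% of all genes, and 28.6% beside 22.3% after centring. Slc38a2, the sodium-coupled carrier SNAT2 for small neutral amino acids, stood at 48.9 FPKM at the lower dose and 8.22 FPKM at the higher. That is a log2 ratio of -2.44, the lowest of the class. Slc1a5, the glutamine carrier ASCT2, stood at 63.0 and 23.5 FPKM, a log2 ratio of -1.39. Its relative Slc1a4, the ASCT1 carrier, went from 20.9 to 8.46 FPKM. Of 4 Slc1 genes compared these 2 were lower. Slc1a3 and Slc1a6, named after their values were seen, had log2 ratios of 0.60 and 0.89.

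Carriers of cationic amino acids and osmolytes were also among the lower genes. Slc7a1, the arginine and lysine carrier CAT1, stood at 14.8 and 4.98 FPKM. Slc7a6, the light chain that exchanges cationic for neutral amino acids, stood at 26.6 and 8.85 FPKM, a log2 ratio of -1.49. The creatine carrier gene Slc6a8 stood at 54.7 and 19.6 FPKM, and the taurine carrier gene Slc6a6 at 36.01 and 15.03 FPKM. Slc38a7, a lysosomal glutamine carrier, stood at 6.51 and 2.04 FPKM. All of these genes had ratios between -1.21 and -1.49, and those of Slc6a6 and Slc1a4 fell within 2-fold after centring.

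Slc3a2 encodes 4F2hc (CD98), the heavy chain that brings Slc7 light chains to the cell surface. It was the most abundant carrier gene in both libraries, at 204 and 181 FPKM, a log2 ratio of -0.18 whose sign turns after centring. Slc7a5, the LAT1 light chain for large neutral amino acids, stood at 102 and 59.7 FPKM (log2 ratio -0.77). Heavy and light chain messages therefore stood at unequal ratios, with -0.18 for the heavy chain and -0.77, -1.49 for the light chains Slc7a5 and Slc7a6. Slc38a10, a member of the Slc38 family, stood at 44.2 and 49.1 FPKM.

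Slc7a14, a member of the cationic amino acid carrier family found in lysosomal membranes, went the other way. It stood at 1 FPKM at the lower dose and 13.7 FPKM at the higher, or an estimated 165 reads (140.8 to 192.2) and 2320 reads (2227 to 2416). Its log2 ratio of 2.88 was the highest of the 126 genes, with 99.9% of all genes compared lower. Slc7a11, the cystine carrier xCT, was below the level compared, at 0.76 and 0.11 FPKM, and Slc38a1 stood at 0.06 FPKM in both.

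Carriers of both directions of zinc transport were among the lower genes. The most abundant members, Slc39a7 and Slc39a1, had log2 ratios of -0.29 and -0.08. Slc39a6, next in mean level, had -1.60. Of 6 genes of the Slc30 family 4 were at least 2-fold lower, and of 9 of the Slc39 family 4, with none higher in either (3 and 4 lower, and 0 and 1 higher, after centring). Over the 15 zinc carriers 53.3% were lower, beside 29.9% of all genes, and 46.7% after centring, beside 22.3%. Among the exporters, Slc30a4, which loads endosomal vesicles, stood at 25.7 and 4.35 FPKM, the lowest log2 ratio of the class (-2.32). Slc30a5, which brings zinc into the early secretory pathway, stood at 20.3 and 3.68 FPKM. Slc30a1, the plasma membrane exporter, stood at 4.83 and 1.24 FPKM, a log2 ratio of -1.38. Slc30a9 was close in both libraries, at 19.2 and 17.6 FPKM. Summed over the family, Slc30 genes stood at 90.3 FPKM at the lower dose and 36.02 FPKM at the higher.

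The Slc39 importers ranged from -2.14 to 0.83 in log2 ratio. Slc39a14, an importer of zinc and also of manganese and iron, stood at 19.1 and 5.50 FPKM (log2 ratio -1.63). Slc39a6 stood at 41.2 and 12.95 FPKM, and Slc39a9 at 10.3 and 1.57 FPKM. Slc39a7, which releases zinc from the endoplasmic reticulum, was the most abundant, at 168 and 137 FPKM, but 82.2% of its 50-base words also occur in the overlapping gene Gm20427, so its level is uncertain. Slc39a1, with 21.8% of its words shared with a pseudogene, stood at 51.5 and 48.7 FPKM. Slc39a13, which is known for its part in connective tissue, stood at 20.4 and 28.2 FPKM. Slc39a11, named after its values were seen, had the highest ratio of the class (10.9 and 20.1 FPKM, log2 ratio 0.83).

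Other zinc-handling genes went in both directions. The metallothionein gene Mt1 stood at 33.4 and 96.9 FPKM and Mt2 at 12.85 and 41.2 FPKM. Mtf1, the zinc-sensing transcription factor, stood at 4.77 and 0.57 FPKM. It passed the level filter only through the 100 µM library, so its direction is fixed by the filter. Thus the messages of the zinc-binding proteins were higher while that of the exporter Slc30a1 was lower. The promoter of Slc30a1 printed above holds matches to the metal response element at positions -43 and 31 from the start, and that of Slc30a4 at -228, -92 and -6. The form TGCGCNC was found for 4 of 13 zinc carrier genes with a promoter in the table, or 30.8%, beside 31.6% of 8238 genes compared and 17.04% of 27025 genes in the table. TGCACNC was found for 5 of them, or 38.5%, beside 14.5% and 14.2%. It was found for 25 of the 96 solute carriers in the table, or 26.04%, and 3 of the 5 zinc carrier genes that hold it were not at least 2-fold lower.

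**Figure D3:**
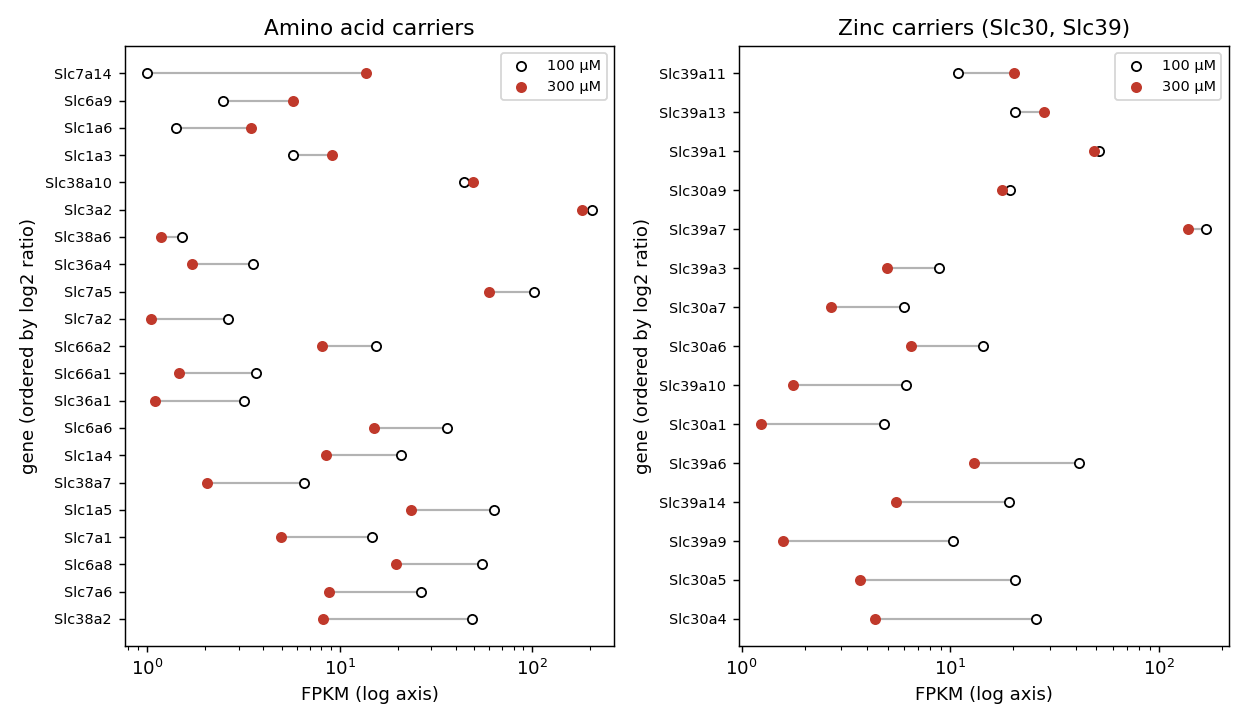
FPKM (log axis) at 100 µM (open circles) and 300 µM (red circles) for the 21 amino acid carrier genes (left) and the 15 zinc carrier genes (right), 1 row per gene, ordered by log2 ratio. Slc38a2 and Slc30a4 are at the bottom with the lowest ratios, and Slc7a14 at the top left moves from 1 to 13.7 FPKM.

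The glucose carrier of most growing cells was lower, while the other hexose carriers had ratios on both sides of 0. Over all sugar carriers 3 of 10 were lower and 1 higher (2 lower and 3 higher after centring). Among them, Slc5a3 and Slc45a4 passed the level filter only through the 100 µM library. Slc2a6 and Slc2a9 passed it only through the 300 µM library. The direction of these genes is thus fixed by the filter. The share lower, 30%, is close to the 29.9% of all genes, and after centring it is 20% beside 22.3%. Slc2a1 (GLUT1) stood at 22.7 FPKM at the lower dose and 4.62 FPKM at the higher, a log2 ratio of -2.07. Slc2a10 stood at 6.93 and 3.05 FPKM, just within 2-fold. Slc2a8, a carrier of intracellular membranes, stood at 13.9 and 18.98 FPKM. Slc2a6, another intracellular carrier, stood at 0.47 and 3.59 FPKM, or an estimated 19 reads (11.4 to 29.7) and 146 reads (123.3 to 171.7), a log2 ratio of 1.64. Of the 5 Slc2 genes compared, 1 was therefore at least 2-fold lower and 1 higher, the latter in a direction fixed by the filter.

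Other sugar carriers had ratios on both sides of 0. The myo-inositol carrier gene Slc5a3, which answers to osmotic stress, stood at 2.77 and 0.19 FPKM, or an estimated 560 and 39 reads (27.7 to 53.3 in the second). Slc45a4 stood at 2.53 and 0.67 FPKM. The sugar efflux gene Slc50a1 was at 31.8 and 58.2 FPKM, a log2 ratio of 0.85 that passes 2-fold after centring. Slc37a3, placed by number in the family of sugar-phosphate exchangers, stood at 6.04 and 5.16 FPKM. Of the enzymes that trap glucose once it has entered, Hk2 stood at 15.1 and 1.33 FPKM and Hk1 at 15.9 and 20.8 FPKM. Txnip, which promotes removal of GLUT1 from the cell surface, stood at 75.9 and 96.7 FPKM.

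Of the monocarboxylate carriers, the abundant Slc16a1 was lower before and after centring. Slc16a1 (MCT1), the carrier of lactate and pyruvate, stood at 42.4 and 11.6 FPKM, a log2 ratio of -1.78. Slc16a9, Slc16a6 and Slc16a13 passed the level filter only through the 100 µM library, so that their direction is fixed by the filter. They stood at 2.60 and 0.64, 2.13 and 0.47, and 1.68 and 0.34 FPKM. Slc16a13 lies exactly at 2-fold on this scale, rests on an estimated 16 reads at 300 µM (9.15 to 25.98), and was also the gene closest to the level filter from within. Slc16a9 shares 19.6% and Slc16a6 24.2% of their 50-base words with other genes. The lactate exporter gene Slc16a3 (MCT4) was below the level compared, at 0.18 and 0.23 FPKM. Bsg (basigin), the chaperone that takes these carriers to the surface, stood at 401 and 579 FPKM.

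The Slc35 family held some of the lowest ratios, while its most abundant gene was above 0. Of 19 genes 10 were at least 2-fold lower and 0 higher (4 lower and 0 higher after centring). The share lower is 52.6% beside 29.9% of all genes. After centring it is 21.1%, close to the 22.3% of all genes. Slc35e3, a member without a settled substrate, stood at 32.7 and 2.30 FPKM (log2 ratio -3.35, with 0.484% of all genes lower). It shares 19.6% of its 50-base words with another gene. Slc35c1, the Golgi GDP-fucose carrier, stood at 12.5 and 0.80 FPKM, or an estimated 726 and 48 reads (35.4 to 63.6 in the second). Slc35d1, a carrier of UDP-sugars into the endoplasmic reticulum that is needed for chondroitin sulphate in cartilage, stood at 4.28 and 0.19 FPKM, the latter an estimated 15 reads (8.40 to 24.7). Slc35c1 and Slc35d1 passed the level filter only through the 100 µM library, so their direction is fixed by the filter. Both are among the 4 genes lower after centring. Slc35b4, which carries UDP-xylose and UDP-N-acetylglucosamine, stood at 16.1 and 3.16 FPKM.

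Other members of that family showed smaller differences or the opposite direction. Slc35e4 stood at 25.6 and 9.90 FPKM and Slc35a4 at 40.6 and 16.9 FPKM, both within 2-fold after centring. Slc35b2, a carrier of the sulphate donor PAPS, stood at 42.2 and 38.8 FPKM, and Slc35a1, the CMP-sialic acid carrier, at 23.3 and 15.4 FPKM. Slc35b1, which exchanges ATP and ADP across the endoplasmic reticulum membrane, was the most abundant, at 75.7 and 122.6 FPKM (log2 ratio 0.69). Slc35c2 stood at 22.7 and 33.6 FPKM. The 13 genes numbered Slc35a to Slc35d summed to 266 FPKM at 100 µM and 253 FPKM at 300 µM, of which Slc35b1 gave 75.7 and 122.6. The 6 of Slc35e and Slc35f summed to 115 and 37.6 FPKM. The median log2 ratios were -0.87 for the 13 genes and -1.13 for the 6. The shares at least 2-fold lower were 46.2% and 66.7%, beside 29.9% of all genes. After centring they were 23.1% and 16.7%, beside 22.3%.

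Among ion carriers, the lowest ratios were those of magnesium, sulphate and phosphate carriers. Both phosphate carriers compared were lower, while the Slc26 and Slc41 families each held members that were not. In this class 9 of 24 genes were at least 2-fold lower and 1 higher (7 lower and 2 higher after centring). The share lower is 37.5% beside 29.9% of all genes, and 29.2% beside 22.3% after centring. Slc20a1 (PiT1), a sodium-phosphate carrier that supplies phosphate for mineral, stood at 96.7 FPKM at the lower dose and 26.4 FPKM at the higher, a log2 ratio of -1.83. Slc20a2 (PiT2) stood at 13.7 and 3.37 FPKM. The sulphate carrier gene Slc26a2, whose loss causes cartilage disorders, stood at 8.83 and 1.69 FPKM (log2 ratio -1.87). The magnesium carrier genes Slc41a2 and Slc41a1 stood at 11.8 and 1.40 FPKM and at 20.1 and 4.09 FPKM. Both phosphate carriers and these 2 magnesium carriers were lower after centring too. Relatives in the Slc26 and Slc41 families, named after their values were seen, did not share the direction: Slc41a3 had a log2 ratio of 0.65, Slc26a11 0.32 and Slc26a6 0.04.

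The regulators of pH and cell volume were more mixed. The sodium bicarbonate carrier gene Slc4a7 stood at 5.67 and 1.44 FPKM, a log2 ratio of -1.45. Slc12a2 (NKCC1), the sodium-potassium-chloride carrier, stood at 10.5 and 4.51 FPKM, within 2-fold after centring. The potassium-chloride carrier gene Slc12a4 stood at 39.2 and 35.2 FPKM, and the anion exchanger gene Slc4a2 at 29.4 and 34.3 FPKM. Slc24a3, a potassium-dependent sodium-calcium exchanger, stood at 1.72 and 4.99 FPKM and was the ion carrier past 2-fold higher (log2 ratio 1.14). Slc8a1, the main sodium-calcium exchanger of heart muscle, was below the level compared at 0.03 and 0.07 FPKM.

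**Figure D4:**
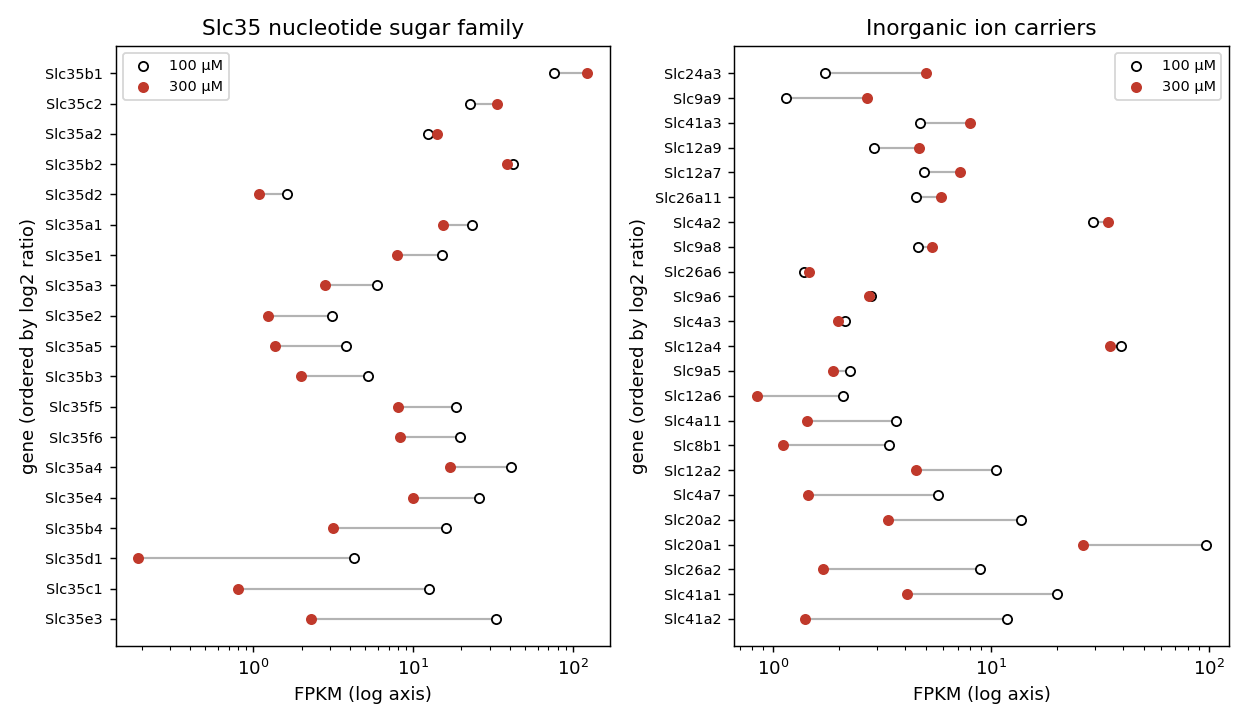
FPKM (log axis) at 100 µM (open circles) and 300 µM (red circles) for the 19 Slc35 genes (left) and the inorganic ion carrier genes with 1 of 24 left out (right), 1 row per gene, ordered by log2 ratio. On the left Slc35d1 lies at 0.19 FPKM at 300 µM and Slc35b1 at 122.6 FPKM. On the right Slc20a1 is the most abundant at 100 µM, at 96.7 FPKM.

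Kinases that set the activity of the chloride carriers were read beside them. Wnk1 stood at 31.3 and 6.47 FPKM, Oxsr1 at 3.27 and 1.88 FPKM and Stk39 (SPAK) at 2.71 and 11.99 FPKM. Among these related kinases, 1 was thus at least 2-fold lower and 1 higher.

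Vitamin carriers held the gene with the lowest ratio of all 126. Slc19a2, a thiamine carrier, stood at 52.2 FPKM at the lower dose and 2.69 FPKM at the higher, or an estimated 3453 and 183 reads (157.4 to 211.5 in the second). Its log2 ratio was -3.85. Slc23a2, the ascorbate carrier needed for collagen hydroxylation, stood at 7.81 and 2.05 FPKM (log2 ratio -1.53). Slc5a6, which carries biotin and pantothenate, stood at 6.40 and 2.55 FPKM and shares 22.3% of its words with other genes. The folate carrier genes differed less, with Slc19a1 at 29.6 and 15.8 FPKM and Slc46a1 at 3.34 and 4.54 FPKM. The riboflavin carrier gene Slc52a2 stood at 11.5 and 7.02 FPKM. In all, 3 of 7 vitamin carriers were at least 2-fold lower and 0 higher (2 lower and 1 higher after centring). The 1 higher after centring, Slc23a1, passed the level filter only through the 300 µM library, so its direction is fixed by the filter.

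Of 3 nucleoside and nucleobase carriers 1 was at least 2-fold lower (33.3%, beside 29.9% of all genes), and the most abundant had a ratio above 0. Slc29a1 (ENT1), the main equilibrative nucleoside carrier, stood at 93.5 and 163 FPKM, a log2 ratio of 0.80 that passes 2-fold after centring. At 300 µM this was the second most abundant solute carrier message, after Slc3a2. Slc29a3, the lysosomal relative, stood at 5.33 and 1.87 FPKM, and Slc43a3, a purine nucleobase carrier, at 6.78 and 7.04 FPKM. Among enzymes that act on imported nucleosides, the thymidine kinase gene Tk1 stood at 40.03 and 89.7 FPKM, and Dck at 13.7 and 14.7 FPKM.

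Of 5 genes classed by family number as carriers of copper, iron and heme, 1 was at least 2-fold lower and 0 higher. That is 20% lower, beside 29.9% of all genes, and 0 were past 2-fold after centring. Slc11a2 (DMT1), the iron importer, stood at 8.79 and 8.12 FPKM, the heme carrier gene Slc48a1 at 89.3 and 75.3 FPKM and the copper importer gene Slc31a1 (CTR1) at 23.4 and 15.5 FPKM. Slc31a2 stood at 8.11 and 3.51 FPKM, a log2 ratio of -1.01, and Slc49a4 at 4.88 and 8.35 FPKM. The iron exporter gene Slc40a1 (ferroportin) was below the level compared, at 0.20 FPKM at 100 µM and listed at 0 at 300 µM. The transferrin receptor gene Tfrc stood at 27.2 and 6.80 FPKM, and the copper chaperone gene Atox1 at 103 and 208 FPKM.

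Of 7 lipid and choline carriers 3 were at least 2-fold lower and 1 higher (2 lower and 1 higher after centring). The share lower is 42.9% beside 29.9% of all genes, and 28.6% beside 22.3% after centring. Slc44a2, a choline carrier-like gene, stood at 14.2 and 33.3 FPKM (log2 ratio 1.18), and Slc44a1 at 12.3 and 16.8 FPKM. The fatty acid transport genes went opposite ways, with Slc27a3 at 13.7 and 22.8 FPKM and Slc27a4 at 12.9 and 4.52 FPKM. Slc33a1, the acetyl-CoA carrier of the endoplasmic reticulum, stood at 13.7 and 4.86 FPKM, with 35.1% of its words shared with another gene. Slc10a3, of the bile acid family, stood at 22.2 and 9.65 FPKM.

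The remaining 7 carriers stood at 9.34 FPKM or less, and 2 were at least 2-fold lower (0 after centring). That is 28.6% lower, beside 29.9% of all genes. Slc15a4, a lysosomal histidine and peptide carrier, stood at 9.34 and 3.92 FPKM. The carnitine carrier gene Slc22a5 stood at 9.30 and 5.42 FPKM and its relative Slc22a21 at 6.03 and 2.34 FPKM. These last genes share 27.1% and 24.2% of their words, each mainly with the other, so the division between them is uncertain. Slc17a5, the lysosomal sialic acid exporter, and Slc18b1 had ratios of 0.03 and -0.11.

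Of the symbols kept, 4 encode no carrier. Slc9a3r2 (NHERF2), a scaffold for a sodium-proton exchanger, stood at 5.84 and 14.5 FPKM (log2 ratio 1.18), whereas its relative Slc9a3r1 (NHERF1) stood at 4.56 and 3.54 FPKM. Slc4a1ap stood at 15.1 and 6.23 FPKM, and Slc7a6os at 52.1 and 30.5 FPKM. Without these, 53 of 122 genes were at least 2-fold lower and 4 higher.

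Near the filter, the genes just inside were Slc16a13, given above, and Slc23a1, at 0.71 and 1.78 FPKM. Just outside were Slc22a15, at 0.88 and 0.85 FPKM, and Slc43a2, at 1.45 and 0.15 FPKM. Among members, 11 were below 1 FPKM in 1 library, 8 of them at 300 µM and 3 at 100 µM, and 8 of the 11 were past 2-fold. Such genes passed through the library where they were high. Of the 171 symbols below the filter, 50 were listed at 0 in both libraries.

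Other carrier families were set beside these genes. The 35 mitochondrial Slc25 genes compared had a median log2 ratio of -0.23, with 12 lower and 1 higher. The 22 ABC transporter genes had -0.07, with 2 lower and 1 higher. The solute carriers' median minus that of Slc25 genes was thus -0.60 on the log2 scale. That difference was -0.16 once the dependence on length and GC content was removed, and 0.03 when genes of all levels were included. No test of the difference is possible with 1 library per dose. Of 39 partner genes compared, 7 were lower by 2-fold or more and 6 higher (7 and 8 once centred), and their median was 0.28. Mtf1 among the lower and Nedd4l among the higher passed the level filter only through the library where they were high. The share of all genes was 29.9% lower and 6.09% higher, beside 34.3% and 2.86% of the Slc25 genes and 9.09% and 4.55% of the ABC genes. Of the amino acid sensing genes among them, Sesn2 stood at 28.7 and 1.38 FPKM and Atf4 at 168 and 293 FPKM.

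Transcript length differed between the groups of carriers. In GENCODE release M21, carriers at least 2-fold lower had a median transcript length of 3904 bases, those between 3258 bases and the 5 higher 3478 bases. Among all genes compared, the corresponding lengths were 4051, 2796 and 1984 bases. The median of the 5 higher members rests on few genes, of 2136, 2138, 3478, 4048 and 8897 bases. The shortest of them, Slc9a3r2, encodes no carrier. Across the 126 genes, which come from the same 2 libraries and are not independent, Spearman's rho of length with ratio was -0.34, and it was -0.41 across 10093 genes. Among the shortest 42 carriers (1022 to 3026 bases) 11 were lower, with a median of -0.15. All genes of those lengths had a median of 0.03, with 19.6% lower. Of the 42 of middle length 21 were lower, with -0.99 beside -0.53 for all genes, 34.04% of them lower. Of the longest 42, 22 were lower, with -1.03 beside -0.89 for all genes, 46.1% of them lower. The part of length in the ratios of single genes was not tested.

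**Figure D5:**
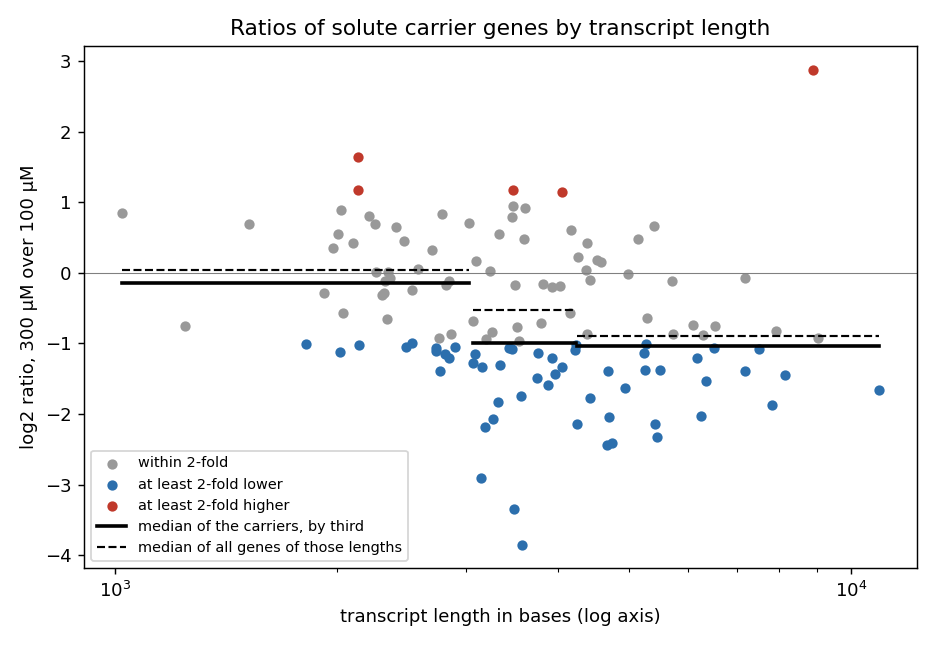
Log2 ratio of 300 µM over 100 µM (vertical) against transcript length in bases (horizontal, log axis) for the 126 genes, 1 point per gene. Solid bars are medians of the carriers in 3 length ranges of 42 genes each (-0.15, -0.99 and -1.03), and dashed bars are medians of all genes in the same length ranges (0.03, -0.53 and -0.89).

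Base composition differed between the groups too. The lower carriers had a median transcript GC content of 49.4%, those between 53.8%, and the 5 higher 53.98%. Spearman's rho of GC content with ratio was 0.32 across the 126 carriers and 0.16 across all genes. Promoter GC content was close, with a median of 63.5% for 38 lower genes and 62.0% for 53 between.

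Promoter matches were counted for the 96 members with an entry in the RefSeq table. The C/EBP-ATF element was found for 4 genes, or 4.17%, beside 2.40% of 8238 genes compared and 4.51% of 27025 genes in the table. Slc1a4 was the amino acid carrier among them, with its match at position -4. The antioxidant element was found for 23, or 23.96%, beside 16.9% of genes compared and 13.99% in the table. It was found for 13 of 38 lower genes, 2 of 5 higher and 8 of 53 between. The promoter of Slc7a6 printed above held it at position -68, and the same match lies at -1 from another annotated start. The E-box was found for 19 genes, or 19.8%, beside 12.2% of genes compared and 8.09% in the table. A match is a string of letters in this window and was not tested as a binding site.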

How the data were processed

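Gene levels were taken from the authors' deposited tables, 1 per library, in FPKM with 2 decimals, per the file headers. The submitters' processing notes list Bowtie2 and RSEM. Their versions, the annotation and the genome build are in none of the sources used here, so they are not stated. Symbols came from RefSeq (GRCm38.p6) by NCBI gene number for 17179 of 17215 genes. Ratios used a pseudocount of 1 and genes averaging 1 FPKM or more. Substrate classes follow family number, with 2 non-carrier symbols moved after the symbols were seen. The members and lists were chosen with earlier results of these data known. Named in each class are up to 6 genes past 2-fold per direction, 5 by level and 30 fixed genes. A few of these genes are not reported here. Depth was read from FPKM times length among genes with 1 transcript in GENCODE M21: steps of 54 and 52.5 bases put 66.4% of 116 low values and 73.0% of 89 within 0.12 of whole reads. Shared 50-base words came from M21 transcripts on both strands. Of the 126 members, 10 shared over 20% of their words and 36 had exons overlapping another gene. The strandedness of the counts is unknown. The steps were tested on simulated data. Alternatives are listed in the closing section. Scripts ran in Python 3.11.15 with matplotlib 3.10.9, scipy 1.17.1, pandas 2.3.3 and numpy 2.4.6.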

Additional observations from a re-analysis of the deposited data

How the results depend on the processing

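With 1 library per dose, no library could be left out. No paired analysis was possible because each dose has 1 library. Members are counted here as lower or higher by at least 2-fold, beside 54 and 5 as reported (median -0.83, difference from Slc25 genes -0.60). At 1.5-fold, 18 were higher, as were 1900 of all genes, and partner genes were 10 higher and 15 lower. At 3-fold, 19 members were lower and 2 higher, 1648 of all genes lower and 123 higher, and 2 partner genes higher. Centring gave 31 lower and 13 higher members, a median of -0.53 and 1472 of all genes higher. The unweighted TMM factor gave 30 and 16, a median of -0.50 and 1728 of all genes higher. Scaling to equal sums gave 2 members higher, a median of -1.101, 219 of all genes higher and 3 partner genes higher. With a pseudocount of 0.1, 10 members were higher, the median was -1.001 and the Slc25 difference -0.71. With a pseudocount of 5, 23 were lower and 1 higher, the median was -0.43, the Slc25 difference -0.31, and 1631 of all genes were lower and 258 higher. At a mean of at least 10 FPKM, 23 of 51 members were lower and 2 higher, 1141 of all genes lower and 358 higher, 4 partner genes lower, and the Slc25 difference was -1.29. The shares lower at that level were 45.1% of members and 21.4% of all genes. Without a filter the median was -0.0286 and the Slc25 difference turned to 0.0280, where genes near 0 FPKM enter. Removing the trend with length and GC content gave 33 lower and 9 higher members, a median of -0.47, a Slc25 difference of -0.16, 2340 of all genes lower and 712 higher, and 4 partner genes higher and 6 lower. The number of classes with a median below that of all genes was then 5. Leaving out members with overlapping exons, chosen after seeing the data, left 34 lower of 90, a median of -0.67 and a Slc25 difference of -0.43. Leaving out the 4 genes that encode no carrier, also chosen after seeing the data, gave 53 lower and 4 higher. Of the 59 members past 2-fold, 0 changed sign in any setting. Pseudocounts and level filters cannot change a sign, and centring and rescaling shift ratios by less than 2-fold. Apart from removal of the length and GC trend, that outcome was thus fixed in advance. The 59 members stayed past 2-fold in 36 cases with centring and in 24 with a pseudocount of 5. The class with the lowest median was carboxylate as reported, zinc with a pseudocount of 5, with equal sums and without members sharing over 20% of their words (-1.37), nucleotide sugar without a filter (-0.72) and vitamin at a mean of at least 10 FPKM (-2.36). Except where given here, the cause of a change was not tested. Depth limits the 3 members with under 20 estimated reads in a library.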
